A study of Mus musculus with 3 samples.

Results

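The inflammasome components described here are the 10 genes Nlrp3, Nlrp1b, Nlrc4, Aim2, Nek7, Pycard, Casp1, Casp4, Casp8 and Gsdmd. The list was set by name, with earlier results of these data known. Its genes are 10 of 55536 annotated genes in the deposited tables, of which 22028 code for proteins. Their RNA was measured in the chromatin fraction of macrophages grown from bone marrow of C57BL/6J mice and exposed to Lipid A, the TLR4-binding part of bacterial lipopolysaccharide, at 100 ng/ml for 15 min. Ribosomal RNA was depleted and total RNA was sequenced. The 3 libraries are biological replicates of 1 group and carry separate sample labels but the same donor label, so their spread may be technical, and nothing states that they came from separate mice. Sex and age were not collected, and the starting RNA was 1 µg, 250 ng and 500 ng in replicates 1, 2 and 3. Unstimulated cells were not analysed here, so the values are levels after Lipid A and not changes.

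An inflammasome is a cytosolic complex that activates an inflammatory caspase. A sensor detects a microbial product or a disturbance of the cell, recruits the adaptor ASC, and ASC gathers caspase-1, which cleaves the precursors of IL-1β and IL-18 and the pore-forming protein gasdermin D. In macrophages a signal through TLR4 is known to prime the NLRP3 inflammasome by raising transcription of Nlrp3 and Il1b, while caspase-11, the product of mouse Casp4, binds lipid A that has reached the cytosol. RNA held at chromatin is mostly nascent or recently finished, and its level need not follow that of cytoplasmic mRNA or protein.

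All 10 genes were present in chromatin RNA, at 1 TPM or more (transcripts per 1000000, a level corrected for length) in each of the 3 libraries. Of all protein-coding genes, 42.4% met the same limit. Nlrp1b stood highest at 98.6 ± 14.9 TPM (SD, n = 3) and Nlrc4 lowest at 7.06 ± 0.446 TPM, and 7 of the 10 were at 10 TPM or more in every library, as were 16.4% of all protein-coding genes. The median of the members' mean levels was 30.8 TPM, beside 0.567 TPM over all protein-coding genes and 10.2 TPM over those that met the limit. The levels rest on 350 to 10154 expected counts per gene and library, from libraries of 10974934, 21376404 and 14376665 expected counts. A floor of 3 counts, which covers counting error only, lay between 0.0246 TPM for Nlrp1b in replicate 2 and 0.292 TPM for Aim2 in replicate 1, well under every member's level.

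RefSeq promoter windows were listed under the names of 9 of the 10 genes, 12 windows in all. Each held 300 bases on GRCm38.p6, 250 before and 50 after an annotated start. The only Casp8 window lies at the start of Casp8-202, and the only Aim2 window near that of Aim2-205. Other starts of these genes were not searched. Gsdmd had no entry. Both strands of each window were searched for an NF-kB motif, for the PU.1 motif GAGGAAGT, for the AP-1 motif TGANTCA, for the interferon-stimulated response element and for TATAAA. An NF-kB match was present for Nlrp3 and Casp4, and in 4.51% of all 32851 promoter windows. A PU.1 match was present for Aim2, Nlrp1b and Pycard, and in 3.2% of all windows. The other 3 motifs had no match in a member, with shares over all windows of 7.81% for AP-1, 3.44% for the interferon element and 13.6% for TATAAA. A match is a run of letters and not evidence that a factor was bound.

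The 250 bases before 4 starts follow, 5′ to 3′ on the strand of the gene, with motif matches in capitals. They are the pair of starts of Nlrp3, whose use the transcript tables split, the start of Casp4, the member that varied most between libraries, and that of Nlrp1b, the member with the highest level. The first Nlrp3 stretch lies at chr11:59541319-59541568 on the plus strand, upstream of the gene, and its NF-kB match begins at -186 from the start. The second lies at chr11:59542436-59542685 on the plus strand, in the first intron of Nlrp3-201 and directly before Nlrp3-202, with no match. The Casp4 stretch lies at chr9:5308599-5308848 on the plus strand, and its NF-kB match begins at -93; a second match overlaps it, shifted by 1 base, and both are 1 site. The Nlrp1b stretch lies at chr11:71230734-71230983 on the minus strand, with a PU.1 match beginning at -96.
Nlrp3, upstream start: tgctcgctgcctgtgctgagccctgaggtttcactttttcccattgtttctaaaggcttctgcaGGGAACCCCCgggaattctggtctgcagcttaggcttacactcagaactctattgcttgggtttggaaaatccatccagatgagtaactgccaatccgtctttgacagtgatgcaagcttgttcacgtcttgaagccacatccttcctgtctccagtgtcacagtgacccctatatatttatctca
Nlrp3, downstream start: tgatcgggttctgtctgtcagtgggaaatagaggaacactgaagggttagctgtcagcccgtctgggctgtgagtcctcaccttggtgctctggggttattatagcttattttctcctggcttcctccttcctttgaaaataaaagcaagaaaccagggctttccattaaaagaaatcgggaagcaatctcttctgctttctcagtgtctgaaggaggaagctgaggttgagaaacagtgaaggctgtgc
Casp4: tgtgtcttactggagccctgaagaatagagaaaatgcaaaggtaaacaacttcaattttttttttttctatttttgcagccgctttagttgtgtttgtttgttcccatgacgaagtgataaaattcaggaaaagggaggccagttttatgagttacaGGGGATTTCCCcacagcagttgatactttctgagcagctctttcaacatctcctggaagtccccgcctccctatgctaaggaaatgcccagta
Nlrp1b: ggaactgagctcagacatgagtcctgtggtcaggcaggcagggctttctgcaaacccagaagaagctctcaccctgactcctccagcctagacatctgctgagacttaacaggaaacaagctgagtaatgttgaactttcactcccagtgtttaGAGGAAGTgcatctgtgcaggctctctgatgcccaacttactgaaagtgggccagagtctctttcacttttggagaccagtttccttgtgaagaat

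**Figure D1:**
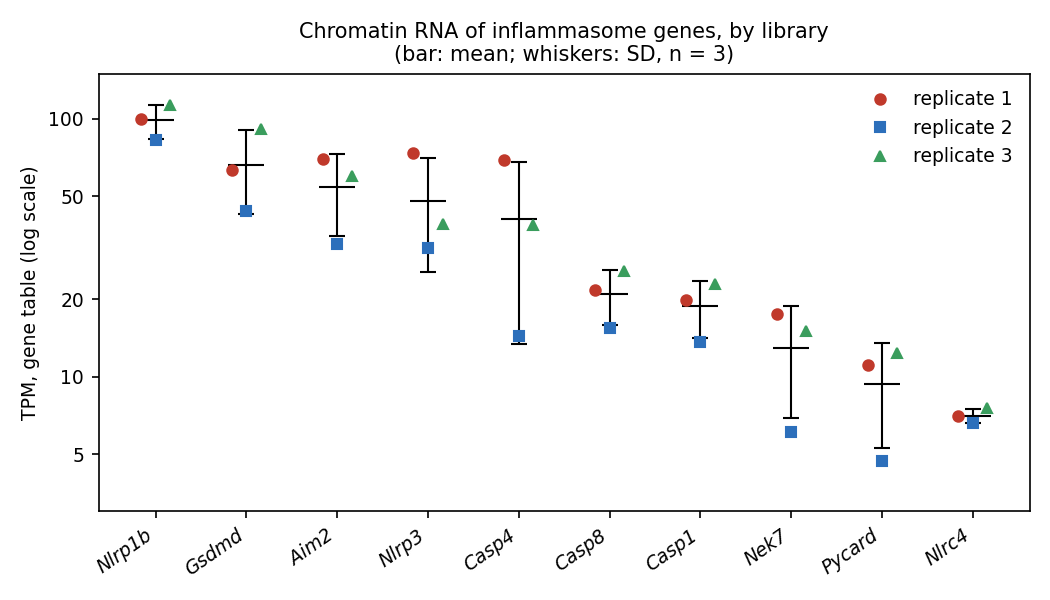
TPM of the 10 genes in the gene table on a log axis, by library (coloured symbols), with the mean as a bar and the SD over 3 libraries as whiskers. Nlrp1b is at the left at 98.6 TPM and Nlrc4 at the right at 7.06 TPM, replicate 2 is the lowest library for every gene, and Casp4 has the longest whiskers for its mean.

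Among the sensors, Nlrp1b led. Nlrp1b encodes a sensor that is activated when a pathogen protease cleaves its N terminus, as anthrax lethal factor does with some alleles. It lies on chr11:71153102-71230733, minus strand, and was at 99.8, 83.2 and 112.9 TPM in replicates 1, 2 and 3. Those values came from 5430, 10154 and 6912 expected counts, the most of any member. They placed Nlrp1b above 98.5% of protein-coding genes, and the 3 libraries lay close together. All 3 of its TPM values lay outside the intervals deposited with them, the only such values among the 30 of the members. The cause was not tested, so the level of Nlrp1b is less certain than its counts imply. Of its 6271 distinct 50-base stretches, 1.45% occur in other genes, mainly Nlrp1a, which was itself at 1.27 ± 0.267 TPM.

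Aim2 encodes a sensor of double-stranded DNA in the cytosol and lies on chr1:173350879-173466040, plus strand. It was at 69.7, 32.7 and 60.1 TPM, with a mean of 54.2 ± 19.2 TPM. Replicate 2 was lowest, and the range overlapped those of Gsdmd and Nlrp3.

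Nlrp3 encodes the sensor that responds to potassium efflux and many other disturbances. It lies on chr11:59541568-59566956, plus strand, and was at 73.9, 31.6 and 39.0 TPM, with a mean of 48.2 ± 22.6 TPM from 3198, 3731 and 2283 expected counts. Replicate 1 stood apart from the other libraries, which were closer to each other than to it. None of its 50-base stretches occurs in another gene.

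Nlrc4 encodes the sensor that joins flagellin- and secretion-detecting NAIP receptors, and lies on chr17:74425438-74459142, minus strand. CT033749.1 overlaps its span on the same strand at 1.1 TPM. Nlrc4 was the lowest member, at 7.03, 6.63 and 7.52 TPM. Its 3 TPM values were the closest together of any member. The receptors that feed it were higher: Naip6 was at 36.0 ± 3.99 TPM and Naip5 at 35.9 ± 3.42 TPM, while Naip1 was at 0.0667 ± 0.0379 TPM on 3 to 4 counts per library. Naip5 and Naip6 are close paralogs. The sequence they share was not measured here, so the split of reads between them may be uncertain.

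Nek7, a mitotic kinase that binds NLRP3 and is needed for its assembly, lies on chr1:138482875-138620141, minus strand. It was at 17.4, 6.09 and 15.1 TPM. Replicate 2 was the lowest, and the gene had a mean of 12.9 ± 5.98 TPM. Of its 137267-base span, 5.37% is exonic, and Gm28501, Gm37101 and Gm37080 are annotated within it at 1.14, 6.03 and 3.96 TPM.

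Pycard encodes the adaptor ASC, through which most sensors reach caspase-1, and lies on chr7:127989708-127993867, minus strand. It was at 11.1, 4.69 and 12.3 TPM, with a mean of 9.36 ± 4.09 TPM. The shared adaptor was therefore second lowest of the 10 genes, and Nlrc4 alone was under it by mean. The isoform to which all its counts were given, Pycard-201, covers 3800 of the 4160 bases of the locus, so that unspliced and spliced reads are counted alike there. Gm45205 overlaps it on the opposite strand at 0.817 TPM, with 436 of Pycard's 3785 50-base stretches; how strand was used in the counting is not given in the sources used here, so reads of this pair cannot be told apart.

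Among the caspases, Casp4 led by mean and varied most. It encodes caspase-11, the intracellular lipopolysaccharide receptor that cleaves gasdermin D without a separate sensor, and lies on chr9:5308828-5336783, plus strand. It was at 69.0, 14.4 and 38.9 TPM, a mean of 40.8 ± 27.4 TPM from 761, 386 and 478 expected counts, or 26.6 TPM without replicate 1. Replicate 1 was far above replicate 2, with replicate 3 between them.

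Casp8 encodes the initiator caspase of the extrinsic death pathway, which can also cleave gasdermin D and join ASC complexes. It lies on chr1:58795374-58847503, plus strand, and was at 21.6, 15.5 and 25.6 TPM, with a mean of 20.9 ± 5.11 TPM. Gm37760 overlaps its span on the same strand at 18.2 TPM, without holding any of its 50-base stretches. Gm20257 holds 4.37% of those stretches, so the level of Casp8 is uncertain.

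Casp1 encodes caspase-1, the effector of the canonical inflammasome. It lies on chr9:5298517-5307265, plus strand, just before Casp4 on the same strand, and was at 19.9, 13.7 and 22.8 TPM, with a mean of 18.8 ± 4.66 TPM. Casp8 exceeded Casp1 in each of the 3 libraries, by 0.15 ± 0.03 on the log2(TPM + 1) scale.

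Gsdmd encodes gasdermin D, whose cleaved N-terminal part forms the pore through which IL-1β leaves and the cell lyses. It lies on chr15:75862327-75867408, plus strand, and was at 63.6, 44.1 and 91.5 TPM. At 66.4 ± 23.8 TPM it ranked second of the members and above 97.1% of protein-coding genes. None of its 50-base stretches occurs in another gene.

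The order by mean level was Nlrp1b, Gsdmd, Aim2, Nlrp3, Casp4, Casp8, Casp1, Nek7, Pycard and Nlrc4. Differences between genes were taken within each library on the log2(TPM + 1) scale. With 3 libraries the exact two-sided sign-flip permutation test cannot go below p = 0.25, so that test makes no call here. For all 9 neighbours in the order the ranges over libraries overlapped, and 5 of them kept their order in every library. Over all 45 pairs, 38 kept their order in every library and 29 had ranges that did not overlap. Nlrp1b exceeded Gsdmd by 0.61 ± 0.30 and Casp1 exceeded Nek7 by 0.60 ± 0.43, both in 3 of 3 libraries. Gsdmd over Aim2 (0.30 ± 0.38), Aim2 over Nlrp3 (0.19 ± 0.37), Nlrp3 over Casp4 (0.40 ± 0.60), Casp4 over Casp8 (0.70 ± 0.87) and Pycard over Nlrc4 (0.27 ± 0.60) differed by less than the spread between libraries.

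A second deposited quantification of the same libraries also placed all 10 genes at 1 TPM or more in every library, beside 53.1% of all protein-coding genes. It gave Nlrp3 237.2, 67.0 and 85.7 TPM and Casp4 185.0, 22.8 and 67.7 TPM, both highest in replicate 1. The ratio to the gene table was 2.70 for Nlrp3, 2.25 for Casp4 and 0.961 for Nlrp1b, with a median of 1.48 over the members and 1.60 over protein-coding genes at a mean of 1 TPM or more. By mean, Nlrp3 was first in the second quantification at 130.0 ± 93.3 TPM, with Aim2 at 95.7 ± 42.6 and Nlrp1b at 94.8 ± 16.4 TPM. That place rested on replicate 1: without it the mean of Nlrp3 was 76.4 TPM, under Nlrp1b at 89.1 and Aim2 at 79.2, and that of Casp4 went from 91.8 to 45.3 TPM. In replicate 1, 165.1 of the 237.2 TPM of Nlrp3 were given to its 676-base isoform Nlrp3-203, on 1252 estimated counts. The longer Nlrp3-202 had 3614.

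**Figure D2:**
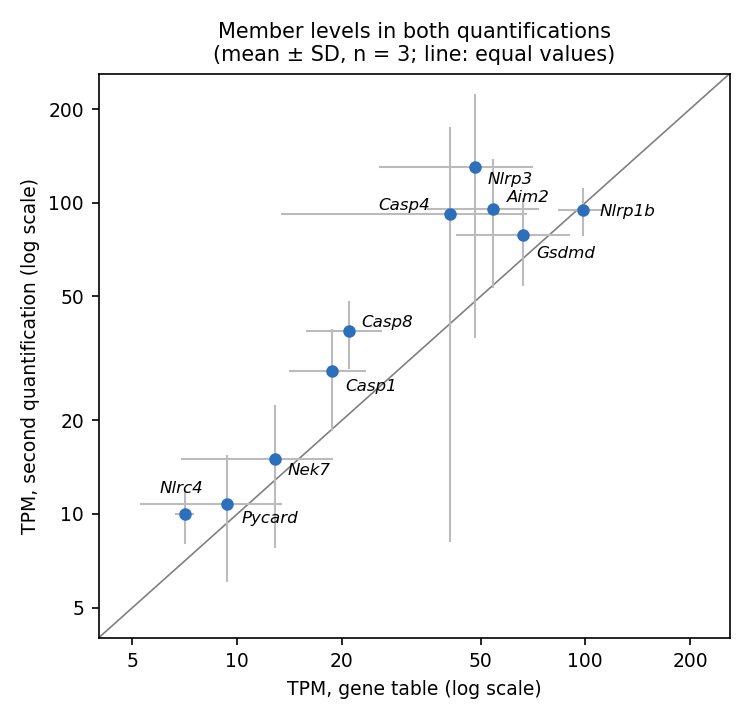
Mean TPM of each gene in the gene table (x, log axis) against the second quantification (y, log axis), with SD over 3 libraries as grey bars and a line at equal values. Nlrp1b lies on the line, while Nlrp3, at 48.2 against 130.0 TPM, is the farthest above it.

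To compare libraries, TPM was rescaled so that protein-coding genes summed to 1000000, since they held 23.9%, 16.7% and 25.3% of TPM in replicates 1, 2 and 3. After that, Casp4 was at 288.9, 86.3 and 153.5 TPM, which is 0.88 above, 0.85 below and 0.03 below its own mean on the log2 scale. Its SD of 0.87 exceeded that of 97.7% of 10251 expressed protein-coding genes. Counting error alone gives an SD of 0.06 at its counts.

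Nlrp3 was at 309.3, 189.7 and 153.9 rescaled TPM, with deviations of 0.57, -0.13 and -0.43 and an SD of 0.51, above that of 83.3% of expressed genes. With counts scaled by TMM and DESeq2 factors the SDs were smaller, 0.40 and 0.39 for Nlrp3 and 0.73 and 0.70 for Casp4. Casp4, Nlrp3, Aim2 and Nek7 were highest in replicate 1 under each of 5 scalings of the counts and TPM. After rescaling alone, these 4 of 10 members were the ones highest in replicate 1, beside 35.2% of expressed protein-coding genes. The share of all genes that hold this place under all 5 scalings was not computed. The lowest library was replicate 2 for Casp4 under all 5; for Nlrp3 it was replicate 3 under 3 scalings and replicate 2 in TPM as deposited and in the second quantification. Without replicate 1, the library farthest from its mean, the SD of Nlrp3 was 0.21, a fall that this choice fixes. Without replicates 2 and 3 it was 0.71 and 0.50.

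Nek7 had an SD of 0.50 and Pycard of 0.43, both lowest in replicate 2, as were 46.9% of expressed protein-coding genes. Without that library, the farthest from the mean of both, the SDs were 0.20 and 0.05, a fall that this choice fixes. Without replicate 1 they were 0.49 and 0.54, and without replicate 3 they were 0.69 and 0.50. Casp1, at 83.3, 82.0 and 90.0 rescaled TPM, and Casp8, at 90.5, 92.8 and 101.1, had the smallest SDs on this scale, 0.07 and 0.08. In TPM as deposited their SDs were 0.36 and 0.35, and Nlrc4 was the smallest at 0.08, so the steadiest member depends on the scaling. For Casp1, Casp8, Nlrp1b, Gsdmd, Nlrc4 and Pycard the highest library changed with the scaling, so none is given. The median SD of the members was 0.27, beside 0.29 over expressed genes, and 4 of 10 were above that value.

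**Figure D3:**
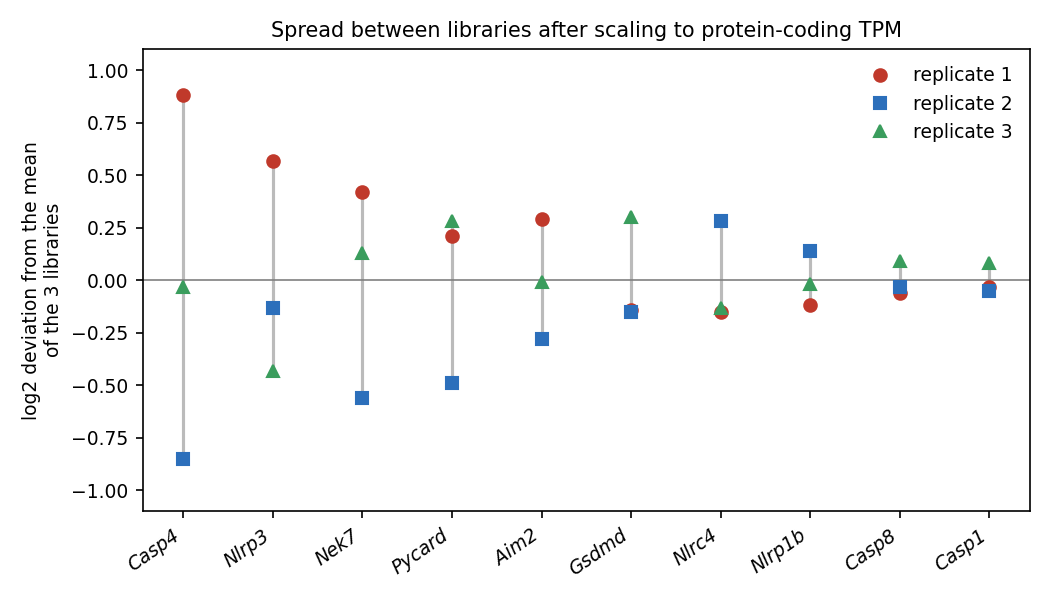
Deviation of each library from the gene's mean over 3 libraries, in log2 of TPM rescaled to protein-coding genes plus 1, with genes ordered by SD. Casp4 runs from -0.85 in replicate 2 to 0.88 in replicate 1, while Casp1 and Casp8 stay within 0.1 of 0.

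The genes closest to Nlrp3 in level over the 3 libraries were sought by the Euclidean distance of log2(rescaled TPM + 1). They were Jun, a subunit of the transcription factor AP-1, at a distance of 0.25, the chemokine gene Ccl4 at 0.35 and the endolysosomal transporter gene Slc15a4 at 0.36. Jun was at 262.3, 197.1 and 149.3 rescaled TPM, Ccl4 at 267.9, 157.9 and 142.1 and Slc15a4 at 323.5, 158.8 and 183.1. Replicate 1 was highest in all 3, and the lowest was replicate 3 for Jun and Ccl4 and replicate 2 for Slc15a4. In all, 18 genes lay within 0.5. The genes were chosen by their nearness over the same 3 libraries, which largely fixes a like order.

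Isoform shares tell how the counts of a gene were split among annotated transcripts, and are given as the percent of the gene's abundance. Isoforms annotated as retaining an intron are listed for 3 of the 10 genes, against 63.5% of expressed protein-coding genes. They took 77.6%, 70.7% and 71.6% of Casp4, 75.0%, 60.1% and 74.2% of Gsdmd and 73.4%, 66.2% and 66.3% of Nek7 in replicates 1, 2 and 3. In all 3 genes they were the larger part in every library. The means were 73.3% ± 3.76, 69.8% ± 8.40 and 68.6% ± 4.15 (SD, n = 3), beside a median of 47.6% and quartiles of 30.5% and 63.1% over 6506 such genes. By share of expected counts, in which short isoforms weigh less, they took 54.3%, 46.1% and 51.9%, beside a median of 30.7% and quartiles of 12.4% and 56.0%. On that measure all 3 genes lay inside the middle range, and not above it.

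Casp4-207, a 752-base retained-intron transcript from within the gene, took 35.5% ± 7.36 of Casp4, while the protein-coding Casp4-201 took 14.2% ± 5.53. In the second quantification Casp4-207 had 22.6% ± 0.752, and another retained-intron transcript, Casp4-205, led with 29.8% ± 4.48. In Gsdmd the retained-intron transcript Gsdmd-204 took 42.2% ± 5.03 and the full-length Gsdmd-201 took 28.3% ± 8.31. For Nek7 the corresponding pair was Nek7-204 at 68.6% ± 4.15 and Nek7-202 at 29.4% ± 7.69. Short isoforms that lie within introns of a long gene can collect reads of the unspliced transcript, and which RNA these reads came from was not tested.

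Nlrp1b and Nlrc4 each have a prominent isoform annotated for nonsense-mediated decay. Nlrp1b-205, which starts at the promoter printed above, took 39.5%, 46.8% and 49.6% of the gene, and Nlrp1b-203, which starts further down the gene, took 26.0% ± 7.60. Nlrc4-202 took 40.6% ± 6.37, beside 57.7% ± 7.72 for the protein-coding Nlrc4-201. In the second quantification the share of Nlrp1b-205 was 59.5% ± 1.17 and that of Nlrc4-202 was 9.40% ± 2.75, so the isoform was a major part in both for Nlrp1b but not for Nlrc4.

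Nlrp3 had protein-coding isoforms only. Nlrp3-201, from the upstream start with the NF-kB match, took 45.3%, 59.3% and 42.1%, and Nlrp3-202, from the downstream start, took 37.0%, 40.7% and 57.9%. The larger of the pair was Nlrp3-201 in replicates 1 and 2 and Nlrp3-202 in replicate 3. In the second quantification Nlrp3-201 had 5.81% ± 0.947, Nlrp3-202 had 36.4% ± 9.93, and the 676-base Nlrp3-203 had 57.8% ± 10.4. The tables therefore do not settle how the starts of Nlrp3 were used.

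Aim2 was split among short and long transcripts. Aim2-204, protein-coding and 2079 bases long, took 32.8% ± 2.65, and the 383-base processed transcript Aim2-206 took 26.4% ± 3.99. Processed transcripts together held 51.8% ± 4.02 of abundance on 10.1% of the counts, since an abundance is per length. In the second quantification Aim2-204 had 16.3%, Aim2-206 15.6%, and Aim2-205 led with 20.3%. Casp8 was shared by Casp8-201 at 48.5% ± 9.00 and Casp8-202 at 37.9% ± 12.9. There too the second quantification differed, with 22.1%, 30.0% and a leading 40.7% for Casp8-204. Casp1 has 1 annotated isoform, and Pycard-201 took all of Pycard.

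**Figure D4:**
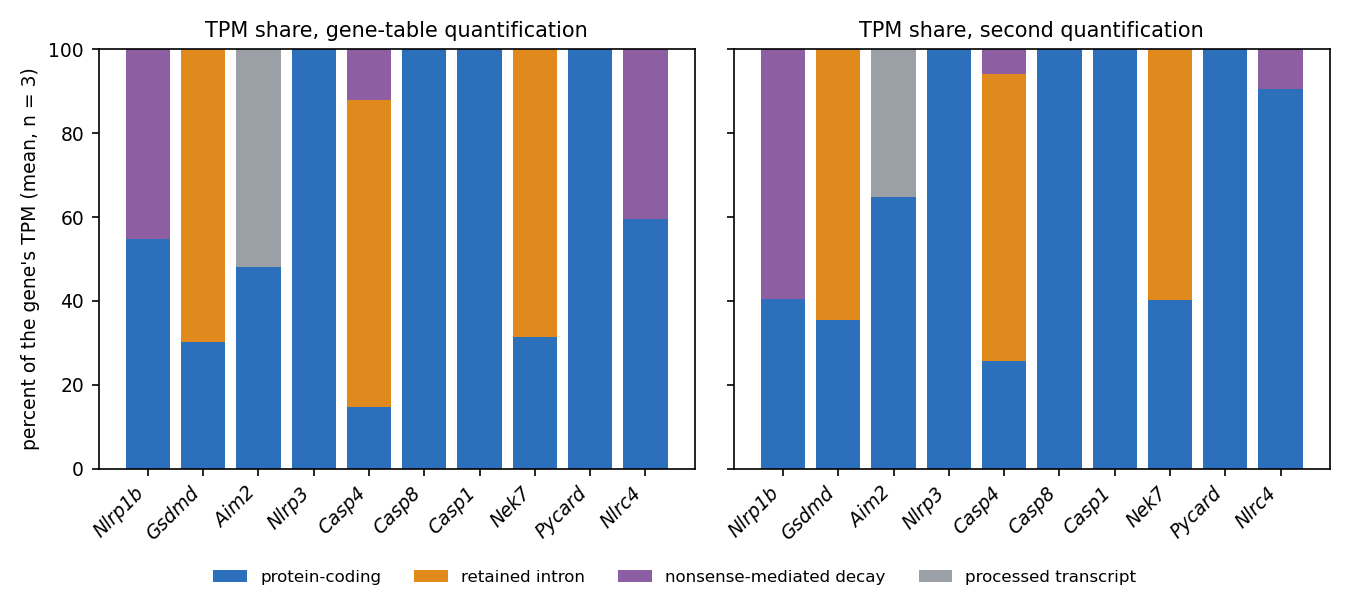
Stacked bars of each gene's TPM by annotated isoform class, as means over 3 libraries in percent, from the transcript table that goes with the gene table (left) and from the second quantification (right). Retained-intron isoforms fill more of Casp4, Gsdmd and Nek7 than any other class in both panels, while the decay class of Nlrc4 shrinks from 40.6% to 9.40%.

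TPM depends on the isoform lengths so assigned. With counts divided by the merged exonic length of a gene, an alternative chosen after seeing the data, Nlrp1b remained first at 76.7 ± 1.61 counts per kilobase and 1000000 counts and Nlrp3 came second at 51.3 ± 17.9. Aim2 and Casp4, where short isoforms hold much of the abundance, moved down to 15.2 ± 3.93 and 10.8 ± 7.10. Casp1, at 19.7 ± 2.36, was then above both and above Casp8, at 17.7 ± 1.72, and Pycard, at 10.7 ± 3.63, was above Nek7, the lowest at 6.76 ± 2.51. The orders of Casp8 and Casp1 and of Nek7 and Pycard thus turned in all 3 libraries with the length used.

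Beyond the 10 components, 31 of 46 other genes of the pathway, in 8 lists, were at 1 TPM or more in every library, and 7 had no count at all. Of all protein-coding genes 42.4% met this limit, a share that stands beside the counts of each list below as well. Both cytokine substrates were present. Il1b, the precursor of IL-1β, was at 233.9, 26.7 and 43.7 TPM, and Il18 was at 8.57 ± 2.39 TPM. Il1b was highest in replicate 1, as were Nlrp3 and Casp4, and after rescaling its deviations were 1.70, -0.90 and -0.80.

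The receptor and sensor lists were mixed. Of 11 other sensors 5 were present, led by Nlrc5, a transactivator of MHC class I genes, at 91.1 ± 14.7 TPM and by the peptidoglycan sensor Nod1 at 12.3 ± 2.27 TPM. Nlrp9b had no count in the gene table but was at 1.32 ± 0.533 TPM in the second quantification. Of the 4 NAIP receptors 3 were present.

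The executioner lists were narrow. Of 7 other gasdermins and rupture genes, Ninj1, needed for the final tearing of the membrane, was at 18.0 ± 6.78 TPM and Gsdme at 5.86 ± 2.69 TPM. The other 5, the Gsdma and Gsdmc genes listed, had no count in the gene table, although the second quantification gave Gsdma2 10.5 ± 3.87 TPM. Gsdmd was thus higher than each of the other gasdermin genes listed in both quantifications. Of 6 other caspases 5 were present, led by the apoptotic Casp9 at 7.10 ± 2.47 TPM. Casp9 was below Casp1, Casp4 and Casp8 by mean, and Casp12 was at 0.67 ± 0.171 TPM.

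All 5 genes of ion channels and redox control were present. Txnip, a thioredoxin-binding protein, was at 61.6 ± 20.7 TPM and the ATP-gated channel P2rx7 at 41.3 ± 11.9 TPM, with Lrrc8a lowest at 1.75 ± 0.628 TPM. Of 6 regulators 5 were present. Pstpip1, which binds pyrin, was at 59.9 ± 8.97 TPM, and Trim31 had no count. The interferon-inducible GTPase gene Gbp5 was at 64.2, 2.77 and 14.5 TPM, with deviations of 2.05, -1.89 and -0.16 after rescaling.

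Of 5 partners of the death complexes 4 were present. Cflar, which encodes the caspase-8 inhibitor c-FLIP, was at 153.6, 42.2 and 97.3 TPM, a mean 97.7 ± 55.7 TPM, beside 20.9 TPM for Casp8. The kinase gene Ripk1 was at 40.1 ± 14.0 TPM and the adaptor gene Fadd at 0.927 ± 0.49 TPM. Cflar and Gbp5, like Casp4, were highest in replicate 1 and lowest in replicate 2.

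**Figure D5:**
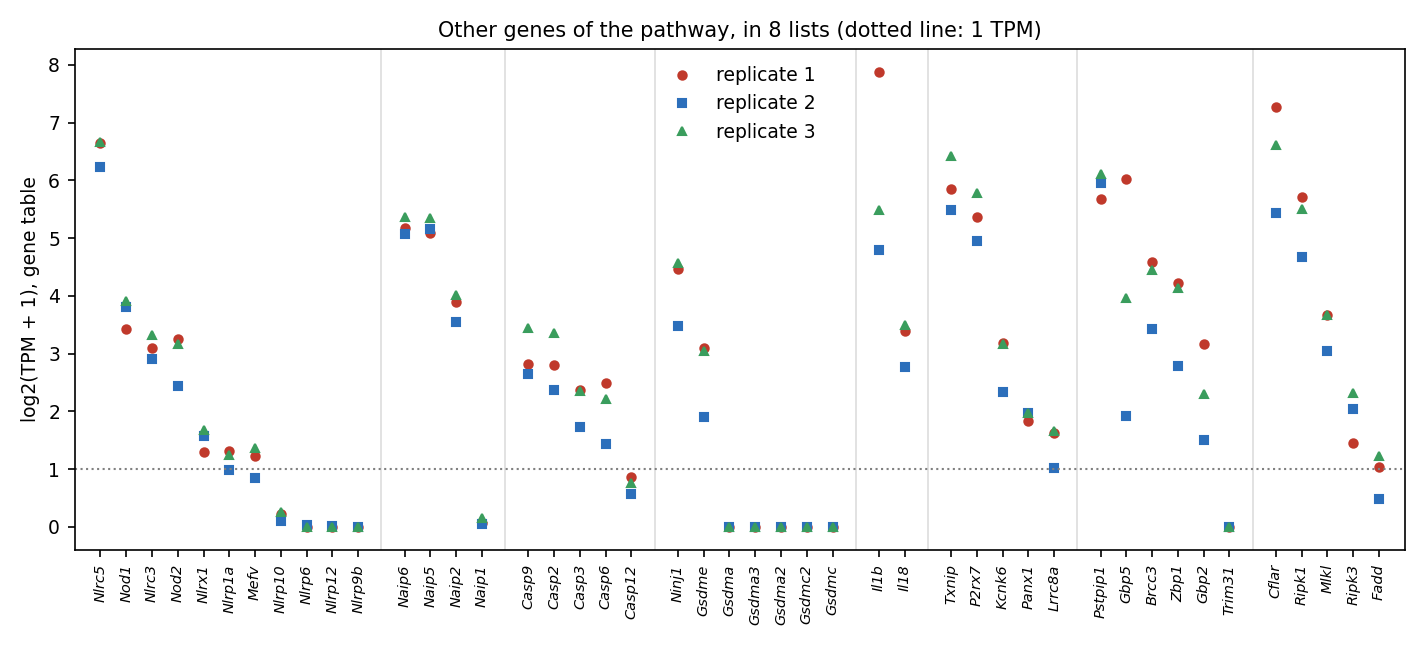
log2(TPM + 1) in the gene table of other genes of the pathway, by library, with grey lines between the 8 lists and a dotted line at 1 TPM. Il1b and Gbp5 show the widest gaps between replicate 1 and the other libraries, and the Gsdma and Gsdmc genes lie at 0.

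The labelled cell type was checked on marker genes. All 10 macrophage markers were at 1 TPM or more in every library, with Csf1r at 159.1 ± 37.4 and Lyz2 at 188.9 ± 96.8 TPM, and their summed level ran from 526.0 to 938.4 TPM. Of 32 markers of neutrophils, T and NK cells, B cells, dendritic cells, mast cells and stroma none met the limit in the gene table, 12 had no count (Ly6g, Elane, Mpo and Cd3e among them), and the summed level of each list stayed at or under 2.02 TPM. In the second quantification 6 of the 32 met it: Cd3d at 16.1 ± 4.35, Pecam1 at 5.76 ± 1.08, Cd8a at 3.88 ± 1.37, Zbtb46 at 3.06 ± 1.00, Siglech at 2.38 ± 0.817 and Col1a1 at 1.51 ± 0.30 TPM. Since these are bulk libraries, fewer cells that express a gene and less of its RNA per cell cannot be told apart. After rescaling, 3 of the 10 macrophage markers were highest in replicate 1, Lyz2 and Spi1 among them with deviations of 0.61 each. Replicate 1, where Nlrp3, Casp4, Aim2, Nek7 and Il1b were highest, also had the most starting RNA and the fewest counts, and the part of either in these differences was not tested.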

How the data were processed

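Chromatin RNA from 3 libraries of 1 group was analysed, from 3 deposited tables per library built on mm10 and GENCODE M21 (assembly per the labels, annotation per the accompanying notes). The deposited gene table and first transcript table give expected counts and TPM, and the authors set TPM to a sum of 1000000 over all features. The first transcript table also gives each isoform's percent of its gene, per the file headers. The authors' other transcript table, called the second quantification, holds estimated counts with TPM, which were summed here per gene by the annotation. Aligner, quantifiers and strand use were not given in the sources used here. TPM includes small RNAs, so libraries were compared after rescaling to protein-coding genes, with a pseudocount of 1 on the log2 scale, which understates differences of low genes. Depth was 10974934 to 21376404 expected counts; floors of 3 counts cover counting error only.

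With 1 group, levels were described and no contrast was tested. Neighbours in the order were compared within libraries by an exact two-sided sign-flip permutation test. Members, the 8 pathway lists and the marker lists were chosen with earlier results of these data known. Named were all 10 members, the 2 highest and the lowest gene of each pathway list (except 1 gene, which is not reported here), isoforms with the highest or at least 25% mean share, and the 3 genes nearest to Nlrp3. Outside that rule, Nlrp1a, Nlrp3-203, Casp4-201, Casp4-205, Casp8-204, Aim2-205, overlapping genes, markers and Gsdma2 were chosen after their values were seen. Scaling factors came from expected counts, rounded to whole numbers, with edgeR 4.0.16 (TMM) and DESeq2 1.42.0 (R 4.3.3). Python 3.11.15 served for all else, with numpy 2.4.6, pandas 2.3.3, scipy 1.17.1 and matplotlib 3.10.9. On simulated counts, log2 differences between libraries were checked for recovery of a known fold, and the SDs were not checked. Shared sequence was counted as 50-base stretches found in annotated transcripts of other genes. Alternatives were the second quantification, other detection limits, scalings, pseudocounts and lengths, and leaving out each library.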

Additional observations from a re-analysis of the deposited data

How the results depend on the processing

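All 10 members and 31 other pathway genes were detected; the members stayed at 10 under each of 7 alternatives, and the other genes ranged from 26 at a limit of 2 TPM to 35 in the second quantification. The members' median level of 30.8 TPM was 58.8 in the second quantification and 135.5 after rescaling to protein-coding genes, and 23.6 to 38.8 with 1 library left out. Their median percentile among protein-coding genes, 91.1, was 84.7 when genes under 0.1 TPM were left out of the background. The median spread of 0.27 (SD, log2) was 0.54 in TPM as deposited, which carries the libraries' differing protein-coding share, and 0.16 to 0.35 with 1 library left out, lowest without replicate 2. The median retained-intron share of 69.8% was 51.9% by counts and 64.6% in the second quantification, and 67.2% to 74.6% with 1 library left out. Of the 9 neighbours, the 5 with one order in every library kept it in the second quantification. With merged exonic lengths the number was 4: 3 of those 5 kept their order, while Casp8 over Casp1 and Nek7 over Pycard turned in every library. Gsdmd minus Aim2 went from 0.30 to -0.21 and Aim2 minus Nlrp3 from 0.19 to -0.33 in the second quantification. The cause was not tested. Values of single genes moved in 81 recomputations and did not in 162, where moving means by more than 1 SD for levels, percentiles, differences and shares or over 1.5 times for spreads. Among the 81 are the levels of all 10 members after rescaling to protein-coding genes, which raises every level by construction. Among the 162 are the members' gene-table levels and their retained-intron shares with 1 library left out. Leaving out 1 of 3 libraries cannot move a mean by 1 SD, so these could only count as not moved. Leaving out 1 library for the spread or in the second quantification, and merged exonic lengths, were chosen after seeing the data. No paired comparison of groups was possible because there is 1 group. With 3 libraries the exact test used could not reach a threshold, and the levels of Casp8, Nlrc4, Nek7 and Pycard include any reads shared with other genes.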
